A study of Mus musculus with 10 samples.

Results

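The genes described here encode 10 matricellular proteins, *Ccn1*, *Ccn2*, *Ccn3*, *Thbs1*, *Thbs2*, *Tnc*, *Postn*, *Sparc*, *Ecm1* and *Fn1*. They were taken by gene symbol, and all 10 were found among the 25233 entries with a symbol of the deposited RNAseq table. Of these, 9 passed the filter on low values (at least 10 normalized counts in at least 5 libraries), and *Ccn3* did not.

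The libraries compare hypertrophied hepatic stellate cells (hypHSCs) with quiescent ones (qHSCs), in 5 preparations each. The hypHSCs came from male C57BL/6J mice fed CDAHFD, a high-fat and choline-deficient diet that gives steatohepatitis and fibrosis, for 13 weeks to an age of 19 weeks (hypHSC 1 and 2) or for 12 weeks to an age of 18 weeks (hypHSC 3, 4 and 5). The qHSCs came from male C57BL/6J mice on the standard diet, aged 36 weeks (qHSC 1, 2 and 5) or 34 weeks (qHSC 3 and 4). All cells were released from perfused livers, enriched on a density gradient and sorted by the native fluorescence of their droplets, green for hypHSCs and blue for qHSCs, and preparations were chosen on RNA quality. The animal behind each library is not named, so n counts preparations, and p-values set the difference between the groups against the spread between preparations. The paper chose its hypHSC preparations from more samples than mice. Some hypHSC libraries may therefore share a liver, while the p-values treat them as independent. Diet, age, digestion and sorting gate differ together between the groups and cannot be told apart.

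Libraries held 30534719 to 47317028 reads on genes with a symbol, and 3 reads corresponded to 2.25 to 4.54 normalized counts, a floor that covers counting error only. The stellate label was checked against 10 markers (*Lrat*, *Reln*, *Des*, *Pdgfrb*, *Dcn*, *Colec10*, *Hand2*, *Lhx2*, *Ngfr* and *Bco1*). All 10 were lower in hypHSCs, where their summed level was 19720 to 44724 normalized counts against 722128 to 1056550 in qHSCs, and *Ngfr* reached 0 in hypHSCs. Most of the sum was *Dcn*, with a mean of 26713 in hypHSCs and 674922 in qHSCs. Other stellate genes did not fall. *Col1a1*, outside this list, had a log2 fold change of 1.23 ± 0.61 SE (limma adjusted p = 0.118). The paper reports *Vim*, *Plin2* and *Pparg* as higher in hypHSCs, and *Acta2*, *Col1a2* and *Col3a1* as unregulated. Macrophage markers summed to 970247 to 1168905 normalized counts in hypHSCs and to 3176 to 84086 in qHSCs, with 38658 in qHSC 1 and 84086 in qHSC 4, and 7 of 10 were higher in hypHSCs. In hypHSCs most of this sum was *Lyz2*, with a mean of 845672. In bulk libraries, fewer cells of a type and less RNA per cell cannot be told apart, and the part of this difference in cell markers in the results on matricellular genes was not tested.

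Matricellular proteins are secreted into the extracellular matrix but are known less for building it than for changing how cells sense it. They bind integrins, syndecans and scavenger receptors, hold growth factors such as TGF-beta, and guide collagen assembly. In liver, stellate cells are a main source of several of them, and CCN2, thrombospondin 1, tenascin C and periostin are commonly studied in fibrosis. Fibronectin, encoded by *Fn1*, is a structural glycoprotein to which many of the others bind.

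The 250 bases before the transcription start are shown for *Ecm1*, the gene with the largest difference between the groups, and for *Ccn1*, a textbook target of the YAP and TEAD transcription regulators. The sequences are from RefSeq on GRCm38.p6, run 5′ to 3′ on the minus strand of chromosome 3, and lie at chr3:95739570-95739819 for *Ecm1* and chr3:145649986-145650235 for *Ccn1*. Capitals mark matches to 4 motifs, searched on both strands and not overlapping here: TGAGTCA for the AP-1 factors, CAGACA for the SMAD factors, GGAATG for the TEAD factors and TATAAA for the core promoter element of that name.
Ecm1: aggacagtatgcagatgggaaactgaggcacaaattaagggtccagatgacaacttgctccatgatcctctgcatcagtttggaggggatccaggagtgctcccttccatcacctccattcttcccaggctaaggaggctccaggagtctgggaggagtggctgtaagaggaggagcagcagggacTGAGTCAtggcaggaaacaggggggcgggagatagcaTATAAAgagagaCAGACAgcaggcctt
Ccn1: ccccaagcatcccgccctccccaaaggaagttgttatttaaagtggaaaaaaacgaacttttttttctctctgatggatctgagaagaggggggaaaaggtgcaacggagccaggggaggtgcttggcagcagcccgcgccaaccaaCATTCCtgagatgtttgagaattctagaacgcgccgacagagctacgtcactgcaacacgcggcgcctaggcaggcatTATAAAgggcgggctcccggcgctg

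The *Ecm1* window held TGAGTCA with its first base at -64 from the start, TATAAA at -27 and CAGACA at -15. The *Ccn1* window held the TEAD letters on the opposite strand, read as CATTCC, at -103, and TATAAA at -25. Of all 32851 promoter windows in the same table, 12.6% held the TEAD letters, 4.46% the AP-1 letters, 12.4% the TATA letters and 17.1% the SMAD letters. RefSeq windows were matched for 6 of the 10 genes, in 8 windows (*Ccn1*, *Thbs2*, *Sparc* and *Ecm1* with 1 start, *Tnc* and *Postn* with more). Among these, the TEAD letters stood only in the *Ccn1* window and the AP-1 letters only in the *Ecm1* window, while the SMAD letters also stood before *Thbs2*, *Sparc* and 1 start of *Tnc*. A match is a description of the letters and not a measured binding site.

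Most of the matricellular genes were lower in hypHSCs. Of the 9 tested, 7 were differentially expressed genes (DEGs, here a log2 fold change of 1 or more in size with an adjusted p not above 0.05) lower in hypHSCs: *Ccn1*, *Ccn2*, *Thbs2*, *Postn*, *Sparc*, *Ecm1* and *Fn1*. Among all 14630 genes tested, 21.7% were DEGs lower in hypHSCs. No tested member was a DEG higher in hypHSCs, against 17.8% of all genes, and *Thbs1* and *Tnc* were not DEGs. In the same 7 genes every hypHSC library lay below every qHSC library, which 22.0% of all genes did, and in no member did every hypHSC library lie above, which 17.6% of all genes did. For each of the 7, the exact two-sided permutation p was 0.00794, the smallest that the arrangements of 5 libraries against 5 can give. Groups without overlap always give this value, so it adds nothing to the separation just described. The median log2 fold change over all genes tested was -0.20.

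**Figure D1:**
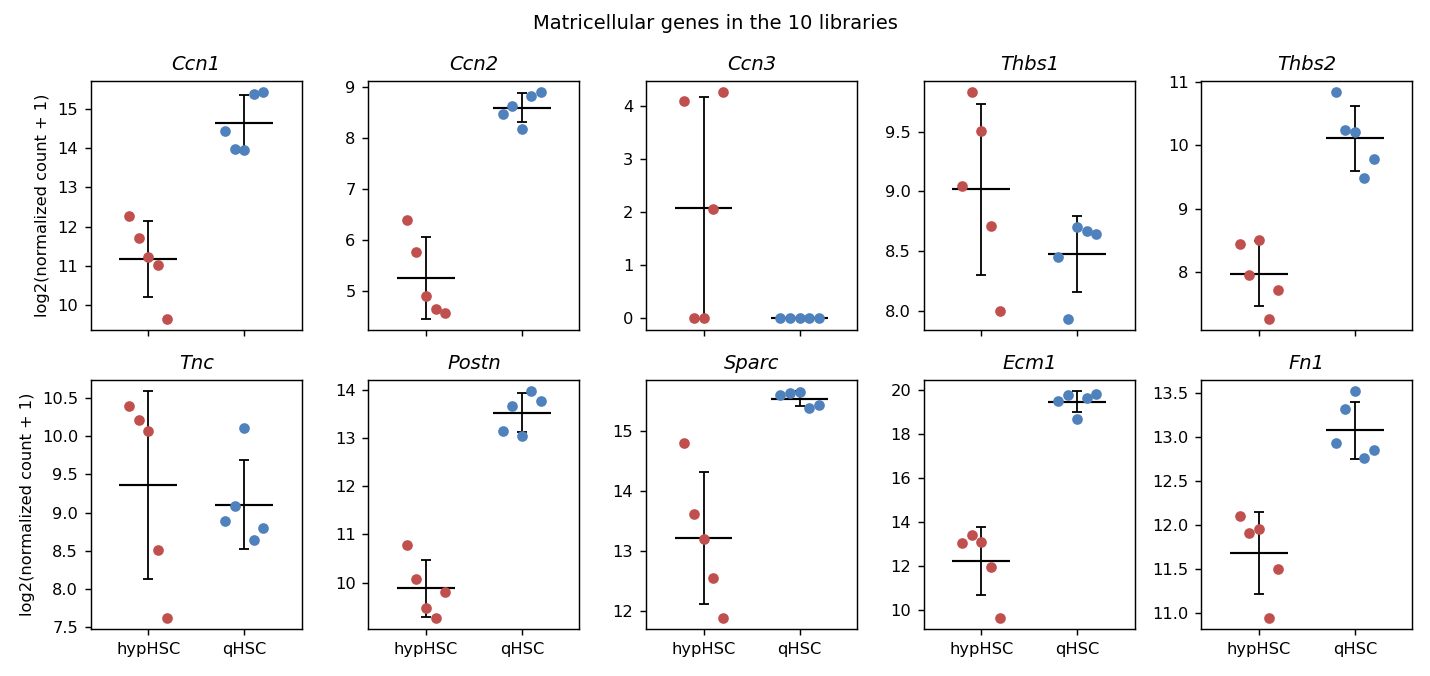
log2(normalized count + 1) of each of the 10 matricellular genes in the 5 hypHSC (red) and 5 qHSC (blue) libraries, from replicate 1 at the left to replicate 5 at the right, with the mean (long bar) and SD. The groups are apart in 7 panels and overlap for *Thbs1*, *Tnc* and *Ccn3*.

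The CCN family are cysteine-rich proteins that bind integrins and heparan sulfate. *Ccn1* (chr3:145352726-145355740 on GRCm39, minus strand), formerly Cyr61, is known to drive senescence of activated stellate cells. Its level in hypHSC 1 to 5 was 4945, 3354, 2397, 2068 and 809 normalized counts, and in qHSC 1 to 5 it was 22192, 16132, 15774, 42423 and 43687. The hypHSC library with the most *Ccn1* thus held less than the qHSC library with the least, and among qHSCs replicates 4 and 5 stood above the others. The means were 2715 ± 1544 (SD, n = 5) and 28042 ± 13948 (SD, n = 5), and *Ccn1* was 10.9-fold lower in hypHSCs (log2 fold change -3.45 ± 0.47 SE, adjusted p = 0.000132).

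*Ccn2* (chr10:24471340-24474583, plus strand), connective tissue growth factor, is a profibrotic cofactor of TGF-beta. It was at 83.6, 53.8, 29.1, 24.1 and 22.7 normalized counts in hypHSC 1 to 5 and at 353.9, 396.2, 288.9, 455.2 and 477.3 in qHSC 1 to 5. *Ccn2* was therefore a low transcript in hypHSCs in all 5 libraries, well above the floor but far under every qHSC library. It was 10.1-fold lower in hypHSCs (log2 fold change -3.34 ± 0.40 SE, adjusted p = 5.38e-05). An antisense gene, *Gm15270*, shares 36.5% of the exon bases of *Ccn2* and was counted at 0 to 19.7 in hypHSCs and at 249 to 467.6 in qHSCs (normalized counts). The libraries kept no strand, so reads of the pair cannot be told apart in the shared stretch, and the same holds for 23.0% of the exon bases of *Ccn1*, which are shared with *Gm17501*.

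*Ccn3* (chr15:54609098-54617435, plus strand), a CCN protein often described as opposing CCN2, was the only member below the filter. It had 12, 0, 0, 3 and 12 reads in hypHSC 1 to 5, which is 16.2, 0, 0, 3.15 and 18.2 normalized counts, and 0 reads in each qHSC library. Only hypHSC 1 and 5 thus stood above the floor of 3 reads, and *Ccn3* was not tested.

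Thrombospondins are multimeric calcium-binding glycoproteins, and THBS1 is an activator of latent TGF-beta. *Thbs1* (chr2:117942357-117957613, plus strand) had 528, 910, 728, 418 and 254 normalized counts in hypHSC 1 to 5 and 348, 244, 416, 405 and 398 in qHSC 1 to 5. Here 4 hypHSC libraries lay above all qHSC libraries, while hypHSC 5 lay within the qHSC range. The means were 568 ± 258 (SD, n = 5) and 362 ± 71.0 (SD, n = 5), and the log2 fold change of 0.54 ± 0.34 SE did not pass (adjusted p = 0.207, exact permutation p = 0.167). Its sign turned to -0.40 when libraries were scaled to *Hprt*, *Pgk1* and *Actb*.

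*Thbs2* (chr17:14885756-14914524, minus strand) encodes a thrombospondin that does not activate TGF-beta and that shapes collagen fibrils. It had 346, 247, 364, 153 and 209 normalized counts in hypHSC 1 to 5 and 1826, 1212, 1183, 717 and 880 in qHSC 1 to 5. Unlike *Thbs1*, its groups did not overlap, and it was 4.39-fold lower in hypHSCs (log2 fold change -2.13 ± 0.31 SE, adjusted p = 0.000214). Each gene was compared between the groups on its own, and the difference between the fold changes of *Thbs1* and *Thbs2* was not tested.

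Tenascin C and periostin are found in remodelled matrix and bind each other, fibronectin and integrins. *Tnc* (chr4:63878022-63965252, minus strand) had 1343, 1183, 1071, 363 and 197 normalized counts in hypHSC 1 to 5 and 472, 541, 1105, 400 and 444 in qHSC 1 to 5. The hypHSC libraries lay on both sides of the qHSC range, 2 above it and 2 below. The log2 fold change was 0.26 ± 0.53 SE (adjusted p = 0.716, exact permutation p = 0.690). Its sign depended on the libraries and the scaling, as it was -0.00 without hypHSC 1 and -0.37 with the hypHSCs at 12 weeks alone, -0.098 with libraries scaled to the same total and -0.68 with libraries scaled to *Hprt*, *Pgk1* and *Actb*.

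*Postn* (chr3:54266688-54298462, plus strand) showed a clear separation instead. Its level was 1750, 1075, 709, 620 and 897 normalized counts in hypHSC 1 to 5 and 9096, 12972, 8435, 15943 and 13968 in qHSC 1 to 5. *Postn* was 12.4-fold lower in hypHSCs (log2 fold change -3.64 ± 0.29 SE, adjusted p = 2.9e-06), the second-largest difference among the members.

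SPARC, or osteonectin, is a collagen-binding glycoprotein that is abundant in mesenchymal cells. *Sparc* (chr11:55284985-55310906, minus strand) had 28502, 12467, 9379, 6012 and 3787 normalized counts in hypHSC 1 to 5 and 49203, 50379, 51275, 42335 and 44050 in qHSC 1 to 5. The qHSC libraries were close to each other, with a highest level 1.21 times the lowest, while the hypHSC libraries spread over 7.53 times and hypHSC 1 came nearest to qHSCs. *Sparc* was 5.00-fold lower in hypHSCs (log2 fold change -2.32 ± 0.44 SE, adjusted p = 0.00119).

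ECM1 is a secreted glycoprotein known to keep latent TGF-beta inactive in liver matrix. *Ecm1* (chr3:95641459-95646883, minus strand), whose promoter is printed above, had by far the largest difference. It was at 8328, 10875, 8729, 3880 and 794 normalized counts in hypHSC 1 to 5, and at 737489, 887675, 419223, 812836 and 911810 in qHSC 1 to 5. The lowest qHSC library thus exceeded the highest hypHSC library many times over, and hypHSC 5 stood far below the other hypHSCs. *Ecm1* was 153-fold lower in hypHSCs (log2 fold change -7.26 ± 0.63 SE, adjusted p = 5.16e-06). The log2 fold change was -6.61 without hypHSC 5 and -7.92 with the hypHSCs at 12 weeks alone. This 1 gene took a median of 2.50% of the reads on genes with a symbol in qHSCs (1.37% to 2.69%) and 0.0202% in hypHSCs (0.00166% to 0.0267%). Without *Ecm1*, the other members together held a median of 0.294% of reads in qHSCs (0.279% to 0.337%) and 0.0519% in hypHSCs (0.0190% to 0.102%), so the lower share did not rest on *Ecm1* alone.

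*Fn1* (chr1:71624632-71692393, minus strand) had the smallest difference of the 7 lower genes. It had 4405, 3857, 3984, 1980 and 2904 normalized counts in hypHSC 1 to 5 and 7822, 10225, 11738, 6930 and 7406 in qHSC 1 to 5. *Fn1* was 2.62-fold lower in hypHSCs (log2 fold change -1.39 ± 0.24 SE, adjusted p = 0.000725), with no overlap between the groups.

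The 10 stellate markers had log2 fold changes from -8.39 (*Colec10*) to -2.87 (*Pdgfrb*), beside -7.26 to -1.39 in the 7 lower matricellular genes. *Fn1*, *Thbs2* and *Sparc* had smaller fold changes than these markers, but for *Sparc* and *Thbs2* the nearest, *Pdgfrb* (-2.87 ± 0.60 SE), lay within the errors, and the differences were not tested. *Thbs1* and *Tnc* were not DEGs, and nor was *Col1a1*, a stellate gene outside the 10 markers (1.23 ± 0.61 SE). Leaving out qHSC 1 and qHSC 4, the qHSC libraries with the most macrophage transcripts, kept 7 members lower and 0 higher. All hypHSC libraries, which held far more macrophage transcripts, stayed in, and the part of those transcripts was not tested. Markers of mesothelial cells and portal fibroblasts, which also make matricellular proteins, summed to 372 to 2190 normalized counts in hypHSCs and to 377 to 677 in qHSCs, with 2 of 5 tested higher in hypHSCs. Of the 8 markers, *Gpm6a* (5.69) and *Cd34* (2.33) were higher, and *Wt1* (0.53), *Eln* (-0.68) and *Entpd2* (-1.78) were not DEGs. *Upk3b*, *Msln* and *Thy1* did not pass the filter on low values and were not tested. Their lowest library was at 0 in both groups. Their highest was at 33.1, 88.9 and 33.7 normalized counts in hypHSCs, against 1.7, 1.7 and 18.7 in qHSCs. Hepatocyte markers summed to 9335 to 84321 in hypHSCs and 20406 to 66335 in qHSCs (0 higher and 1 lower of 8), sinusoidal endothelial markers to 562 to 901 and 996 to 2387 (2 higher and 2 lower of 7), and cholangiocyte markers to 442 to 2830 and at most 56.5 (3 higher of 3). Platelets carry THBS1 protein, and markers of platelets and megakaryocytes summed to 4404 to 8157 in hypHSCs and 3647 to 6226 in qHSCs (1 higher and 1 lower of 4), mostly *Pf4*, with *Gp9* at 0 in every hypHSC library. The part of these cell types in the results was not tested.

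Levels of different genes were compared per length, as FPKM over summed exon length. In qHSCs *Ecm1* led with a median of 6273 FPKM (3423 to 6743), rank 5 of all genes with a symbol and a length, followed by *Sparc* with 357.7 (291 to 391) and *Ccn1* with 338.6 (240.4 to 642). *Postn* followed with 44.9 (31.4 to 56.0), *Fn1* with 15.3 (13.2 to 24.1), *Thbs2* with 4.39 (2.64 to 6.77), *Ccn2* with 3.76 (2.95 to 4.39), *Tnc* with 1.84 (1.54 to 4.51) and *Thbs1* with 1.74 (1.14 to 2.10), and *Ccn3* was at 0. Neighbours whose ranges overlapped in qHSCs were *Sparc* and *Ccn1*, *Thbs2* and *Ccn2*, *Ccn2* and *Tnc*, and *Tnc* and *Thbs1*. The qHSC profile thus had *Ecm1* alone at the top and *Sparc* with *Ccn1* next.

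In hypHSCs the order was flatter at the top. *Sparc* had a median of 61.1 FPKM (18.6 to 162.5), *Ecm1* 50.8 (4.17 to 66.9) and *Ccn1* 32.8 (8.33 to 59.1), and the ranges of these 3 overlapped. *Fn1* had 5.97 (2.79 to 6.99), *Tnc* 3.64 (0.516 to 4.10), *Postn* 2.25 (1.58 to 4.86), *Thbs1* 1.99 (0.823 to 3.45), *Thbs2* 0.725 (0.409 to 1.21), *Ccn2* 0.254 (0.149 to 0.637) and *Ccn3* 0.0124 (0 to 0.0693). With summed exon length, only the steps from *Ccn1* to *Fn1* and from *Ccn2* to *Ccn3* separated neighbours without overlap of the FPKM ranges. The order of the medians was the same with the longest transcript as gene length in both groups, in 20 of 20 ranks. The separations in hypHSCs were not the same. With the longest transcript the ranges of *Ccn1* and *Fn1* overlapped, and those of *Fn1* and *Tnc* did not. *Postn* stood above *Tnc* in qHSCs and below it in hypHSCs, although the ranges of *Tnc* and *Postn* overlapped in hypHSCs.

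**Figure D2:**
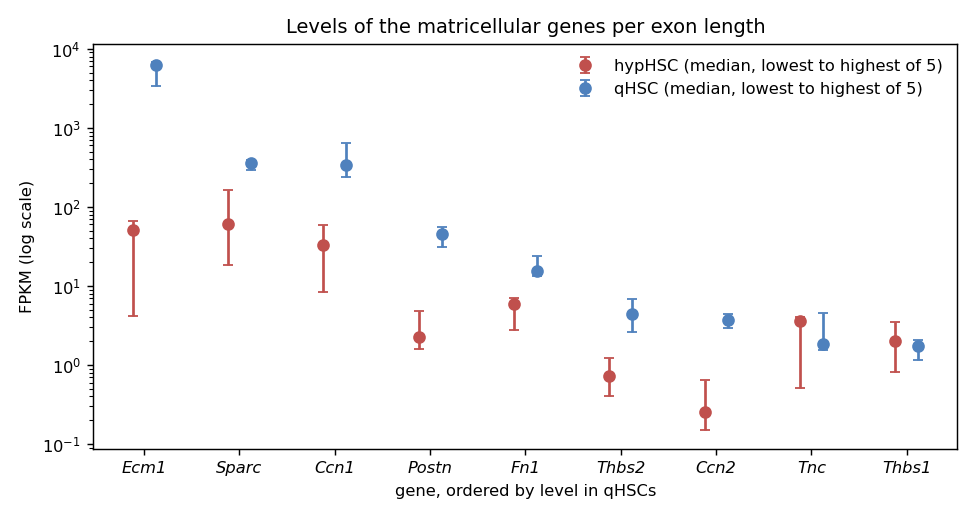
FPKM (log scale) of the 9 tested matricellular genes in hypHSCs (red) and qHSCs (blue), ordered by the qHSC median, where points are medians and bars run from the lowest to the highest of 5 libraries. The qHSC levels span from 6273 for *Ecm1* to 1.74 for *Thbs1*, and the hypHSC levels from 61.1 for *Sparc* to 0.254 for *Ccn2*.

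In 8 of the 9 tested members the SD between preparations and the ratio of the highest to the lowest were larger in hypHSCs than in qHSCs, and for *Thbs2* the SDs were 0.52 and 0.51 and the ratios 2.38 and 2.55. No test was made of these differences in spread. The SD of log2(normalized count + 1) ran from 0.47 (*Fn1*) to 1.55 (*Ecm1*) in hypHSCs and from 0.12 (*Sparc*) to 0.72 (*Ccn1*) in qHSCs, beside a median over all genes tested of 0.73 and 0.34. *Ecm1*, *Tnc*, *Sparc*, *Ccn1* and *Ccn2* varied above that median in hypHSCs, by 13.7, 6.83, 7.53, 6.11 and 3.68 times between the highest and the lowest library. *Ccn1*, *Ccn2*, *Tnc* and *Sparc* shared 1 ranking, with hypHSC 1 highest, then 2, 3 and 4, and hypHSC 5 lowest. That ranking was held by 3.69% of all genes tested. More loosely, hypHSC 1 was highest in 6 of 9 members (22.7% of all genes), hypHSC 5 lowest in 6 of 9 (38.1% of all genes), and both libraries at 13 weeks of diet lay above all 3 at 12 weeks in 5 of 9 (15.6% of all genes): *Ccn1*, *Ccn2*, *Tnc*, *Postn* and *Sparc*. These rankings were singled out after the values had been seen, and with 2 libraries against 3 no test was made.

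The summed mesothelial and portal fibroblast markers were 2190, 1363, 940, 617 and 372 normalized counts in hypHSC 1 to 5, in the same order as *Sparc*. Mitochondrial entries took 12.8%, 7.27%, 3.10%, 2.21% and 3.42% of all reads in hypHSC 1 to 5 and 1.25% to 1.61% in qHSCs. The mitochondrial share was thus highest in hypHSC 1 and 2 but not lowest in hypHSC 5. The summed stellate markers, mostly *Dcn*, followed another order, 44724, 22518, 19720, 30727 and 34126. The factors for scaling to *Hprt*, *Pgk1* and *Actb* were 1.87, 1.71, 1.44, 1.24 and 0.889, in the same order as *Sparc*. The rankings were not repeated under that scaling. Diet length and age also differed between hypHSC 1 and 2 and the others, and the part of each in these rankings was not tested.

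A list of 21 further genes held relatives of these genes and matricellular genes of other families (*Spp1*, *Ibsp*, *Vtn* and *Ecm2*), and 14 of the 21 were tested. DEGs were 9 lower and 3 higher in hypHSCs, beside 21.7% and 17.8% of all genes, and 2 were not DEGs. The median log2 fold change was -2.51 over the 14, against -0.20 over all genes. *Tgfbi*, a paralog of periostin, fell from 57077 ± 13525 (SD, n = 5) to 5642 ± 2461 normalized counts (log2 fold change -3.42 ± 0.30 SE, adjusted p = 5.86e-06). *Ecm2*, a small leucine-rich matrix protein, fell from 518 ± 91.6 to 61.4 ± 49.8 (-3.39 ± 0.50 SE, adjusted p = 0.000222), and *Ccn4* (WISP1) from 756 ± 294 to 83.8 ± 53.9 (-3.26 ± 0.42 SE, adjusted p = 9.14e-05).

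The 3 higher genes were *Spp1*, *Comp* and *Ccn5*. *Spp1*, osteopontin, which macrophages and injured bile duct cells are known to make, reached 237752 ± 72318 normalized counts in hypHSCs against 122 ± 154 in qHSCs (log2 fold change 12.19 ± 1.03 SE, adjusted p = 4.37e-06), with 12.93 without qHSC 3 and 11.14 without qHSC 4. *Comp*, thrombospondin 5, was at 63.8 ± 23.6 against 0.684 ± 1.53 (5.51 ± 0.63 SE, adjusted p = 3.6e-05), and since it was near 0 in qHSCs, its fitted fold depends on the pseudocount. *Ccn5* (WISP2), a CCN protein that lacks one domain of the others, was at 150 ± 100 against 14.4 ± 20.1 (4.30 ± 1.13 SE, adjusted p = 0.00876), with 5.07 without qHSC 3 and 3.66 without either qHSC 4 or qHSC 5, and was not called with the hypHSCs at 12 weeks alone. *Thbs3* (-0.34 ± 0.61 SE, adjusted p = 0.668) and *Smoc1* (-0.95 ± 0.84 SE, adjusted p = 0.372) did not pass. The 7 genes that were not tested were low, and the most abundant of them, *Thbs4*, averaged 33.6 ± 52.6 normalized counts in hypHSCs and was at 0 in every qHSC library.

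**Figure D3:**
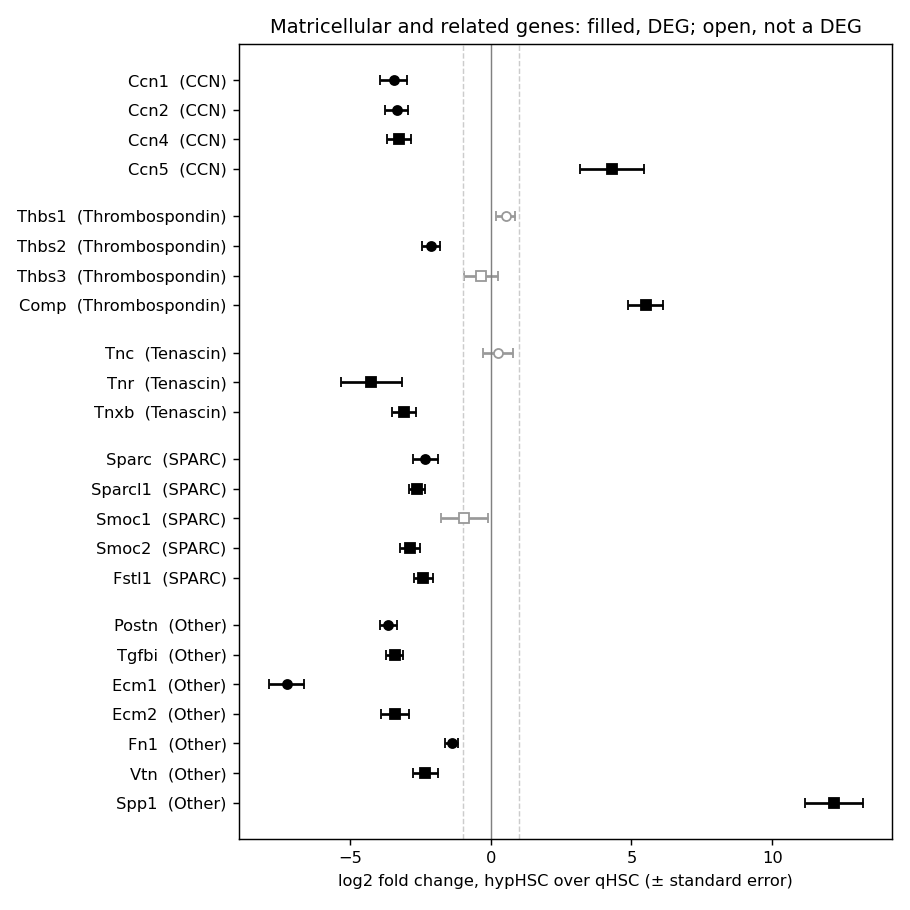
log2 fold change (hypHSC over qHSC, bars are limma standard errors) of the 9 tested members (circles) and of the 14 further genes (squares), by family with the rest as other, where filled marks are DEGs and dashed lines mark the threshold of 1. Values lie between -7.26 (*Ecm1*) and 12.19 (*Spp1*), and 3 genes, *Spp1*, *Comp* and *Ccn5*, are DEGs higher in hypHSCs.

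Receptors of these proteins were described from a list of 19, of which 18 were tested. Of these, 7 were higher in hypHSCs (17.8% of all genes were), 4 were lower (21.7% of all genes, a share near that of the receptors) and 7 were not DEGs, with a median log2 fold change of 0.27. The split was 6 higher and 5 lower with libraries scaled to the same total or without hypHSC 5, 6 and 8 scaled to *Hprt*, *Pgk1* and *Actb*, and 6 and 6 with the hypHSCs at 12 weeks alone. *Cd36*, the scavenger receptor that binds thrombospondin 1, reached 115457 ± 42131 normalized counts in hypHSCs against 236 ± 264 in qHSCs (log2 fold change 10.05 ± 1.05 SE, adjusted p = 1.95e-05), with 8.91 without qHSC 2 and 10.73 without qHSC 4. *Itga6*, a laminin-binding integrin chain that also binds CCN1, was at 365 ± 117 against 2.29 ± 2.91 (7.16 ± 0.65 SE, adjusted p = 7.12e-06), a fold that depends on the pseudocount, and *Sdc1*, a heparan sulfate proteoglycan, at 1009 ± 298 against 54.2 ± 24.9 (4.33 ± 0.44 SE, adjusted p = 1.63e-05).

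The 4 lower receptors were all integrin chains. *Itgb3*, a chain of the vitronectin receptor, was at 7.41 ± 7.70 normalized counts in hypHSCs against 337 ± 239 in qHSCs (log2 fold change -5.81 ± 0.84 SE, adjusted p = 0.000183), and as it reached 0 in hypHSCs this ran from -6.70 to -4.20 over the alternatives. *Itgb8*, whose dimer with the alpha v chain activates TGF-beta, differed by -3.60 ± 0.94 SE (adjusted p = 0.0085), and the stellate cell integrin chain *Itga8* by -2.71 ± 0.71 SE (adjusted p = 0.00835). Without hypHSC 5 these 3 were at -5.22, -2.89 and -1.94. *Itga9*, a tenascin C receptor, fell from 1851 ± 243 to 356 ± 181 (-2.52 ± 0.33 SE, adjusted p = 8.82e-05). The fibronectin receptor chain *Itga5*, named after its values had been seen, was at 3970 ± 2865 in hypHSCs against 686 ± 236 (2.14 ± 0.59 SE, adjusted p = 0.0114), opposite in sign to *Fn1*, and its call was lost with the hypHSCs at 12 weeks alone. Its partner *Itgb1* was -0.95 ± 0.23 SE (adjusted p = 0.00535), just short of the fold threshold. *Cd36* and several integrin chains are also expressed by macrophages, whose markers differed between the groups as given above.

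**Figure D4:**
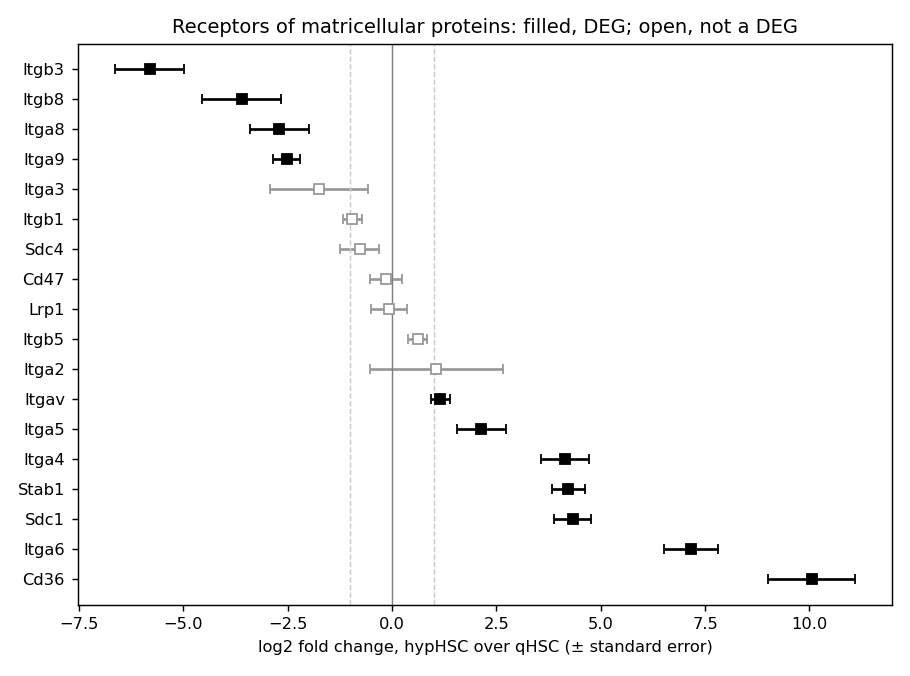
log2 fold change (hypHSC over qHSC, bars are limma standard errors) of the 18 tested receptor genes, sorted, where filled squares are DEGs and dashed lines mark the threshold of 1. They run from -5.81 (*Itgb3*) to 10.05 (*Cd36*), with 7 DEGs on the higher side and 4 on the lower.

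*Ccn1* and *Ccn2* are widely used as readouts of YAP and TEAD activity, so other target genes of this pathway were counted. Of 20, 18 were tested, and 8 were lower in hypHSCs (21.7% of all genes were), 5 higher (17.8% of all genes) and 5 not DEGs, with a median log2 fold change of -0.82. *Nt5e*, the ectonucleotidase CD73, was at 5.42 ± 2.61 normalized counts in hypHSCs against 4402 ± 1843 in qHSCs (-9.38 ± 0.42 SE, adjusted p = 6.52e-08, and -10.23 to -8.05 over the alternatives), and *Igfbp3* at 92.8 ± 94.3 against 2423 ± 452 (-5.40 ± 0.69 SE, adjusted p = 8.19e-05). The 5 higher genes were *Myof*, *Ankrd1*, *Dock5*, *Gadd45b* and *Nuak2*, of which *Dock5* was not called with the hypHSCs at 12 weeks alone and *Nuak2* not with libraries scaled to *Hprt*, *Pgk1* and *Actb*. *Dock5* was at 3.95 ± 1.05 SE, and at 3.06 without qHSC 2. *Myof*, a membrane repair protein, was at 4358 ± 696 against 113 ± 59.8 (5.49 ± 0.44 SE, adjusted p = 2.9e-06). *Ankrd1*, together with *Ccn1* and *Ccn2* the most used readout, was at 809 ± 735 against 30.5 ± 30.2 (4.98 ± 0.73 SE, adjusted p = 0.000214), opposite in sign to both CCN genes, and DESeq2 gave no p for it.

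Genes of the TGF-beta response, which is known to raise *Ccn2*, *Postn*, *Tnc* and *Fn1*, were counted likewise. All 12 were tested, of which 4 were lower (21.7% of all genes were), 1 was higher (17.8% of all genes) and 7 were not DEGs, with a median of -0.62. Without hypHSC 5, 3 were higher and 4 lower. Among the lower genes were *Tgfb1i1* (-4.19 ± 0.74 SE, adjusted p = 0.000787, and -3.43 without hypHSC 5), *Col4a1* (-2.51 ± 0.48 SE, adjusted p = 0.00124) and *Pmepa1* (-2.23 ± 0.39 SE, adjusted p = 0.000726). *Ltbp2*, a matrix protein of elastic fibres, was higher, at 597 ± 432 normalized counts against 8.62 ± 11.8 (6.42 ± 0.90 SE, adjusted p = 0.000158). It reached 0 in qHSCs, so its fold depends on the pseudocount, and it was 7.05 without qHSC 3 and 5.82 without qHSC 5.

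Immediate early genes, which like *Ccn1* respond within minutes to serum or to dissociation of tissue, were present in both groups. All 14 were tested, of which 3 were lower, a share near the 21.7% of all genes, 1 was higher (17.8% of all genes) and 10 were not DEGs, with a median of -0.80. Without qHSC 3, or with the hypHSCs at 12 weeks alone, 5 were lower. *Socs3* (-2.85 ± 0.40 SE, adjusted p = 0.000165), *Ier2* (-1.97 ± 0.28 SE, adjusted p = 0.000177) and *Fosb* (-1.90 ± 0.39 SE, adjusted p = 0.00189) were lower, and *Atf3* was higher, at 20840 ± 3578 against 4007 ± 3131 (2.69 ± 0.43 SE, adjusted p = 0.000401). The number of DEGs rose from 4 to 9 with libraries scaled to the same total and to 11 with libraries scaled to *Hprt*, *Pgk1* and *Actb*, of which 8 and 10 were lower. The log2 fold change of *Ccn1* was -3.81 and -4.39 under these 2 scalings. Digestion differed between the groups, and its part cannot be told apart from that of the other differences.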

How the data were processed

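RNA of sorted cells per preparation was reverse-transcribed from its poly(A) tail, amplified and sequenced without strand. The deposited table holds a signal for each gene, made by the authors by mapping reads to mm39 with STAR, counting them with featureCounts (Subread 1.5.0) on FAST DB genes and dividing by DESeq2 size factors, and are called normalized counts here. Reads recovered from them were whole for 100% of values (within 0.005), at size factors of 0.661 to 1.33. The 37089 of 62322 entries without a symbol were used only in an alternative.

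Genes reaching 10 normalized counts in 5 or more libraries were compared on log2(normalized count + 1) with limma 3.58.1 (lmFit, eBayes with trend) in R 4.3.3, Benjamini-Hochberg adjusted over all 14630 genes. Fold changes on this scale understate changes of low genes. DEG thresholds follow the study. FPKM used recovered reads and GENCODE exon lengths on GRCm39, matched for 91.9% of symbols. The floor on reads covers counting error only, while the SDs and limma standard errors measure the spread between preparations. The script was tested on simulated data. Alternatives used DESeq2 1.42.0 and edgeR 4.0.16 on recovered reads, other pseudocounts, filters and scalings, and libraries left out.

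The members, lists and alternatives were chosen with earlier results of these data known. Beside all 10 members, the named genes are, per list, up to 4 DEGs with the largest absolute fold change and a mean of at least 100 normalized counts, every gene of a count of 5 or fewer, and markers beside a result. The values of 1 gene that this rule names are not reported here.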

Additional observations from a re-analysis of the deposited data

Results flagged for a closer look

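*Ecm1* in qHSC 3 stood apart from the other qHSC libraries at 419223 normalized counts, against 737489 to 911810 in the others. On log2(normalized count + 1), its gap to the nearest library was 0.727 of the range of the group. That lay above Dixon's 95% critical value of 0.71 for 5 samples, and the ratio was taken on this log scale only. Of 19 groups of libraries tested in this way it was the only one, and chance gives about 1 in 20. Without qHSC 3, *Ecm1* remained a DEG lower in hypHSCs.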

How the results depend on the processing

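Under all 24 alternatives 7 members were called lower and 0 higher. Leaving out 1 library at a time gave log2 fold changes of -3.73 to -3.07 for *Ccn1*, -3.63 to -3.17 for *Ccn2*, 0.34 to 0.80 for *Thbs1*, -2.29 to -1.95 for *Thbs2*, -0.00 to 0.69 for *Tnc*, -3.86 to -3.49 for *Postn*, -2.72 to -1.99 for *Sparc*, -7.55 to -6.61 for *Ecm1* and -1.50 to -1.21 for *Fn1*. *Thbs1* had an adjusted p of 0.0262 without hypHSC 5 but stayed under the fold threshold. The sign of *Thbs1* turned with libraries scaled to *Hprt*, *Pgk1* and *Actb* (-0.40), and that of *Tnc* with the same scaling (-0.68), with scaling to the same total (-0.098), with the hypHSCs at 12 weeks only (-0.37) and without hypHSC 1 (-0.0019). Immediate early DEGs were 9 with the same total and 11 with *Hprt*, *Pgk1* and *Actb*, against 4. The median log2 fold change of all genes was -0.20 as reported, -0.54 with the same total, -0.15 with the same upper quartile, -0.16 with TMM factors and -1.12 with *Hprt*, *Pgk1* and *Actb*, and the higher share of the DEGs of all genes, 2602 higher and 3177 lower (45.0%), was 32.4% with the same total (4225 lower) and 17.4% with *Hprt*, *Pgk1* and *Actb* (1472 higher and 6990 lower), and 52.9% with DESeq2 (3494 higher and 3107 lower) and 52.2% with edgeR. With entries without a symbol included they were 3911 and 5380 among 24320 entries. The replicate block gave 7 members lower and 0 higher, and 2557 and 3229 of all genes. The replicate numbers did not pair the libraries (correlations of 0.0082 to 0.13, with only number 5 correlating best with its own partner), and the block changed no call of a member. Leaving out qHSC 1 and 4 was chosen after seeing the data. Depth limits *Ccn3*, which lay near the floor of 3 reads.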
